A study of Mus musculus with 39 samples.

Results

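Liver RNA of SXR knockout mice given PCB-153 was compared with liver RNA of SXR knockout mice given the vehicle DMSO, as 5 libraries against 5. These 10 libraries belong to a series of 39 from liver and spleen of C57BL/6 wild-type and SXR knockout mice. All mice were 4 weeks old, and the exposed mice had received about 54 µg/kg/day of PCB-153 perinatally up to that age. The 5 wild-type livers given PCB-153 and the 5 wild-type livers given DMSO are used beside them. Both knockout groups carry the same SXR deletion (SXR is also called PXR), which the labels give without a Cre driver and so without limit to one cell type. Exposed and vehicle knockouts differ only in the compound, as labelled. Genes were kept when their mean normalised read count over the 20 liver libraries was 10 or more, which left 16155 of the 54735 genes in the table. The labels do not say whether the 5 livers of a group came from separate litters, so p-values measure the spread between these libraries only.

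PCB-153 is a non-dioxin-like polychlorinated biphenyl that persists in fat. In rodent liver it is known as an activator of CAR, a nuclear receptor encoded by Nr1i3, and of SXR, which is encoded by Nr1i2. Both receptors bind as partners of RXR to response elements near genes for drug metabolism, with Cyp2b10 as the classic CAR target and Cyp3a11 as the classic SXR target in mouse. Mice without SXR still carry CAR, so that the knockout livers show which genes of this family differ with PCB-153 when SXR is missing.

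The 10 knockout libraries held between 17791725 and 28647032 counted reads. Xist, which female cells transcribe, was at most 3.97 normalised counts and Y-linked Eif2s3y at least 607 in all 10. Nr1i2 was counted at 449 to 969 in vehicle knockouts and at 612 to 1155 in exposed knockouts, against a mean of 1572 ± 178 (SD, n = 5) in vehicle wild types. Counting over a whole gene does not separate deleted from remaining exons, so these reads check the labels only in part. Akr1b7, an aldo-keto reductase, was at least 169 in each knockout liver and had a mean of 21.9 ± 6.70 (SD, n = 5) in vehicle wild types. It was named after its values in these libraries were seen, so it is no separate check of the labels. Vehicle knockout replicates 2 and 5 were the lowest of the 10 for Akr1b7, at 248 and 169. Hepatocyte markers summed to between 2168000 and 2864000 normalised counts in the 10 libraries.

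Vehicle knockout replicates 2 and 5 stood apart from vehicle replicates 1, 3 and 4. The chi-square of their read counts per degree of freedom was 10.8 between replicates 2 and 5, 9.98 to 27.1 among replicates 1, 3 and 4, and 49.4 to 69.0 between the sets. Among the 5 exposed knockouts the same quantity ran from 16.03 to 79.41. H19, an imprinted RNA of fetal liver, was at 302 and 493 in vehicle replicates 2 and 5 and at 28246, 16034 and 26375 in the others. Vehicle wild types ran from 97.6 to 711 for H19, so vehicle knockout replicates 2 and 5 lay inside that range. The labels give no litter, cage or preparation batch that would divide the vehicle knockouts. Counts of list members below are therefore also given with these 2 libraries left out, an alternative chosen after the data were seen.

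No gene passed an adjusted p of 0.05 in the limma fit of the exposed against the vehicle knockouts (0 of 16155, Benjamini-Hochberg, smallest adjusted p = 0.0959). edgeR's quasi-likelihood test on the reads recovered from the table also called 0, DESeq2 on the same reads called 63 of 6129 (1.03%), and the authors' deposited table, made with DESeq2, called 61 of the 5754 genes with an adjusted p (1.06%), 20 higher (0.348%) and 41 lower (0.713%). DESeq2 here and the authors' deposited table shared 60 of these genes, or 95.2% of the 63 and 98.4% of the 61. All 61 had the same direction in limma and an unadjusted p under 0.05, and for 27 of them the 5 exposed and 5 vehicle values did not overlap. The fit called an unadjusted p under 0.05 for 1592 genes (9.85%), 723 higher (4.48%) and 869 lower (5.38%), and 391 genes (2.42%) had groups that did not overlap, 189 higher (1.17%) and 202 lower (1.25%). Without vehicle replicates 2 and 5 the first of these counts was 889 (5.5%), 434 higher (2.69%) and 455 lower (2.82%). List counts given below for that setting stand beside these shares. The total was also 963 without vehicle replicate 2 alone, 946 without exposed replicate 2 and 2404 without exposed replicate 5. On leaving out 1 library, 423 to 1027 of the 16155 genes were higher and 512 to 1377 lower at that p. List counts given below with 1 library left out stand beside these ranges. Because no gene passed the adjusted limma test, differences below are given as values, and "called" refers to the authors' deposited table.

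Among the xenobiotic cytochrome P450 enzymes, Cyp2b10, Cyp2a5 and Cyp2a22 lay higher in each exposed than in each vehicle knockout, Cyp2c37 had a higher mean with overlap, and Cyp3a11 had nearly equal means. Cyp2b10 (chromosome 7, 25897620 to 25926624, GRCm38) was at 700, 968, 975, 893 and 1299 normalised counts in the vehicle knockouts and at 2509, 1816, 2332, 1652 and 2532 in the exposed knockouts. Each exposed liver lay above each vehicle liver. The log2 fold change was 1.17 ± 0.25 (SE; limma adjusted p = 0.115), and it was 1.33 without vehicle replicates 2 and 5. The authors' deposited table called Cyp2b10 higher at a log2 fold change of 1.16 and an adjusted p of 0.0016. In wild types the mean was 573 ± 161 with vehicle and 736 ± 299 with PCB-153 (SD, n = 5 each).

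Cyp2c37, an arachidonic acid hydroxylase, was at 3930, 6854, 3144, 4806 and 5715 in vehicle knockouts and at 7703, 13049, 14129, 6211 and 12436 in exposed knockouts. The groups overlapped by 1 library, vehicle replicate 2 against exposed replicate 4. Its log2 fold change was 1.11 ± 0.23 (SE; limma adjusted p = 0.0959), against -0.06 ± 0.23 in wild types. Cyp2c55, an SXR and CAR target of liver and gut, was at 1391, 1543, 1266, 1526 and 1495 in vehicle knockouts and ranged from 1174 to 3178 in exposed knockouts, where exposed replicate 1 was the lowest of the 10 livers. Both knockout groups lay above the wild-type means of 715 ± 119 and 661 ± 106 (SD, n = 5 each). Cyp2a22 was at 1796 to 2324 in vehicle and 3179 to 5814 in exposed knockouts without overlap, and Cyp2a5, a coumarin hydroxylase, at 4622 to 6609 against 6818 to 12464, also without overlap. Cyp2a22, Cyp2a5 and Cyp2c37 share 20.2%, 37.0% and 30.1% of their 50-base words with other transcripts, so part of their reads could be counted elsewhere.

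Cyp3a11 was at 51835, 109610, 68342, 75464 and 94924 in vehicle knockouts and at 73363, 71043, 86246, 65119 and 104340 in exposed knockouts. The groups overlapped throughout and the log2 fold change was 0.03 ± 0.17 (SE), with vehicle replicates 2 and 5 the highest of their group. Without these libraries it was 0.29. Its neighbour in the family Cyp3a16, an enzyme of young and female liver, was at 1985 to 4186 and 3406 to 5756, with a log2 fold change of 0.51 ± 0.18 (SE). Cyp1a1 and Cyp1a2, the classic targets of the dioxin receptor AHR, had log2 fold changes of -0.07 ± 0.30 and 0.13 ± 0.22 (SE). They were 0.37 and 0.49 without vehicle replicates 2 and 5, the second at an unadjusted p under 0.05. Alas1, the first enzyme of heme synthesis, had 0.24 ± 0.41 (SE) with all libraries and 0.46 without those 2. Cyp2a22 is outside the list of CAR and SXR targets used below, as is the epoxygenase Cyp2j9, which was at 104 to 149 in vehicle knockouts and at 185 to 419 in exposed knockouts without overlap.

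**Figure D1:**
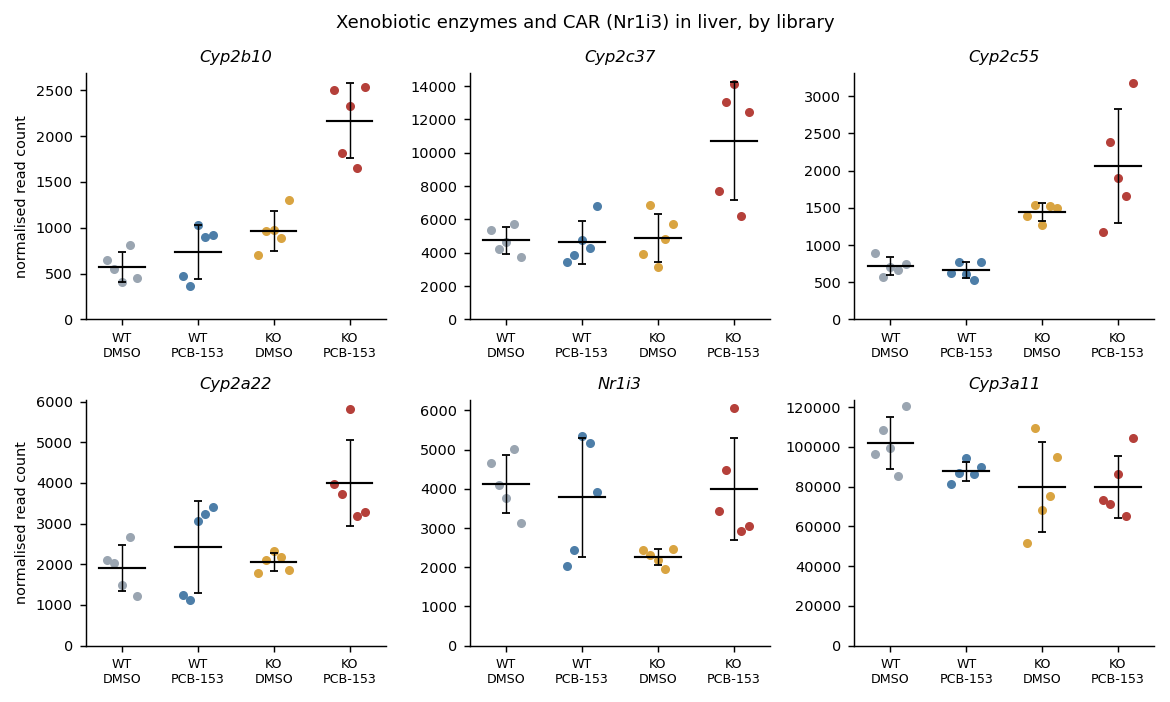
Normalised read count of 6 genes in each liver library, in 4 groups of 5 (WT, wild type; KO, SXR knockout). Points are libraries, bars the mean ± SD; Cyp2b10 and Cyp2a22 of the 5 exposed knockouts all lie above the 5 vehicle knockouts, while Cyp3a11 overlaps in full.

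Of 27 measured phase I enzymes on a list of CAR and SXR targets, 20 had a higher and 7 a lower mean in exposed knockouts (49.5% and 50.5% of all genes). At an unadjusted p under 0.05, 10 were higher and 2 lower (4.48% and 5.38% of all genes). The median log2 fold change of the list was 0.34 (all genes -0.0025), against -0.11 in wild types, where 5 had a higher and 22 a lower mean (48.7% and 51.3% of all genes) and 0 had an unadjusted p under 0.05. Without vehicle replicates 2 and 5, 13 members were higher and 1 lower at that p (2.69% and 2.82% of all genes). The count of 10 was 5 without vehicle replicate 1 or without vehicle replicate 3, 6 without exposed replicate 3 and 7 without exposed replicate 5. The difference between the genotypes had an unadjusted p under 0.05 for 10 of the 27 genes, against 2.69% of all genes. No difference between genotypes passed adjustment for any gene (0 of 16155 with limma, 435 at an unadjusted p under 0.05, smallest adjusted p = 0.986, and 0 with edgeR and DESeq2).

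Nr1i3, the gene for CAR itself, was at 2434, 2315, 2186, 1950 and 2461 in vehicle knockouts and at 3438, 4472, 6072, 2931 and 3054 in exposed knockouts. The 2 groups did not overlap, and the log2 fold change was 0.76 ± 0.24 (SE; limma adjusted p = 0.396), against -0.21 ± 0.24 in wild types. The exposed knockout mean of 3993 ± 1310 lay within the SD of the vehicle wild-type mean of 4130 ± 743, and the vehicle knockout mean of 2269 ± 209 lay below both (SD, n = 5 each). Tomm40l, a mitochondrial import gene that the authors' deposited table called higher at an adjusted p of 0.0466, lies on the opposite strand and has 3304 exon bases in common with Nr1i3 (Nr1i3 at 171213970 to 171220701 and Tomm40l at 171216011 to 171222514 of chromosome 1, GRCm38). The Tomm40l count was between 0.852 and 0.903 of the Nr1i3 count in each of the 20 liver libraries. No source used here gives the strand setting of the counting, so the reads of these 2 genes cannot be told apart. Of the 20 measured nuclear receptors on the list, 2 were higher and 5 lower at an unadjusted p under 0.05 (4.48% and 5.38% of all genes), among the latter Thrb, the thyroid hormone receptor beta gene (-0.47 ± 0.16, SE), and Nr3c1, the glucocorticoid receptor gene (-0.40 ± 0.16, SE). The counts were 1 and 0 without vehicle replicates 2 and 5, with Thrb at -0.33 and Nr3c1 at -0.24, and the count of 5 was 2 without vehicle replicate 2, exposed replicate 1 or exposed replicate 2.

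Among 31 conjugation enzymes, 5 were higher and 1 lower at an unadjusted p under 0.05 (4.48% and 5.38% of all genes), with a median log2 fold change of 0.06. The counts were 3 and 2 without vehicle replicates 2 and 5, 1 and 3 without exposed replicate 3, and 2 and 5 without vehicle replicate 1, where the median was -0.0012. Ugt1a1, which conjugates bilirubin, was at 12051 to 15829 in vehicle knockouts and at 14687 to 20321 in exposed knockouts, a log2 fold change of 0.28 ± 0.12 (SE). Ugt1a5 and Ugt1a6a share exons with Ugt1a1 and had log2 fold changes of 0.29 and 0.28, so these are not 3 separate measurements. Sult1e1, the estrogen sulfotransferase, was at 25.6, 1.89, 41.7, 65.3 and 3.76 in vehicle knockouts and at 282, 169, 234, 117 and 19.7 in exposed knockouts. Vehicle replicates 2 and 5 were the 2 lowest, and exposed replicate 5 lay within the vehicle range. The log2 fold change was 2.94 ± 0.84 (SE) with all libraries and 1.54 without these 2. Ugt2a3 was the member lower at that p, at 1817 to 2787 in vehicle and 1095 to 2029 in exposed knockouts. Among 19 transporters, 2 were higher and 2 lower at that p (4.48% and 5.38% of all genes). The counts were 2 and 1 without vehicle replicates 2 and 5 (2.69% and 2.82% of all genes). No transporter was higher at that p without exposed replicate 2 or without exposed replicate 4. Abcc4, an efflux pump, had a log2 fold change of 0.66 ± 0.30 (SE) and Slco2b1, an uptake carrier, -0.39 ± 0.14 (SE). These became 0.47 and -0.15 without vehicle replicates 2 and 5, and neither had an unadjusted p under 0.05.

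Scd1, Scd2 and Elovl5, genes of fatty acid desaturation and elongation, lay lower in each exposed than in each vehicle knockout. Scd1, the stearoyl-CoA desaturase of liver (chromosome 19, 44394455 to 44407879, GRCm38), was at 138910, 131060, 132370, 145460 and 134950 in vehicle knockouts and at 73723, 17344, 27482, 83331 and 58426 in exposed knockouts. The vehicle livers lay within a narrow range, and exposed replicates 2 and 3 were the lowest. The log2 fold change was -1.62 ± 0.32 (SE; limma adjusted p = 0.0959) and -1.65 without vehicle replicates 2 and 5, and the authors' deposited table gave -1.39 with an adjusted p of 0.0016. The vehicle knockout mean of 136550 ± 5815 lay above the vehicle wild-type mean of 74385 ± 25316, and the exposed knockout mean was 52061 ± 28710 (SD, n = 5 each).

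Scd2, the desaturase most active in other tissues and in newborn liver, was at 1051, 861, 664, 1267 and 852 in vehicle and 382, 261, 205, 651 and 628 in exposed knockouts. Elovl5, an elongase of polyunsaturated fatty acids, was at 10175, 10185, 10802, 10935 and 11458 in vehicle and 7580, 5114, 4921, 7859 and 6268 in exposed knockouts. Neither gene overlapped between the groups. For Elovl5 the log2 fold change was -0.78 ± 0.14 (SE; limma adjusted p = 0.0959) in knockouts and -0.33 ± 0.14 in wild types. Elovl5 was called lower in the authors' deposited table, whose smallest adjusted p, 0.000776, it had. Fabp5, a fatty acid binding protein, was at 2462 to 5654 and 1354 to 2952 and was also called lower in the authors' deposited table. Of 29 measured genes of fatty acid synthesis, 5 had a higher and 24 a lower mean, with 0 higher and 8 lower at an unadjusted p under 0.05 (4.48% and 5.38% of all genes) and a median of -0.39. That count was 4 without vehicle replicates 2 and 5 and 5 without exposed replicate 1, and the median without vehicle replicates 2 and 5 was -0.22. In wild types 5 also had a higher and 24 a lower mean (48.7% and 51.3% of all genes). The wild-type median was -0.17, with 1 gene lower at that p (3.11% of all genes). Fasn, the fatty acid synthase gene named after its values were seen, was at 7691 to 13305 and 4582 to 11525, with exposed replicates 1, 2 and 4 below the vehicle range and replicates 3 and 5 inside it.

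**Figure D2:**
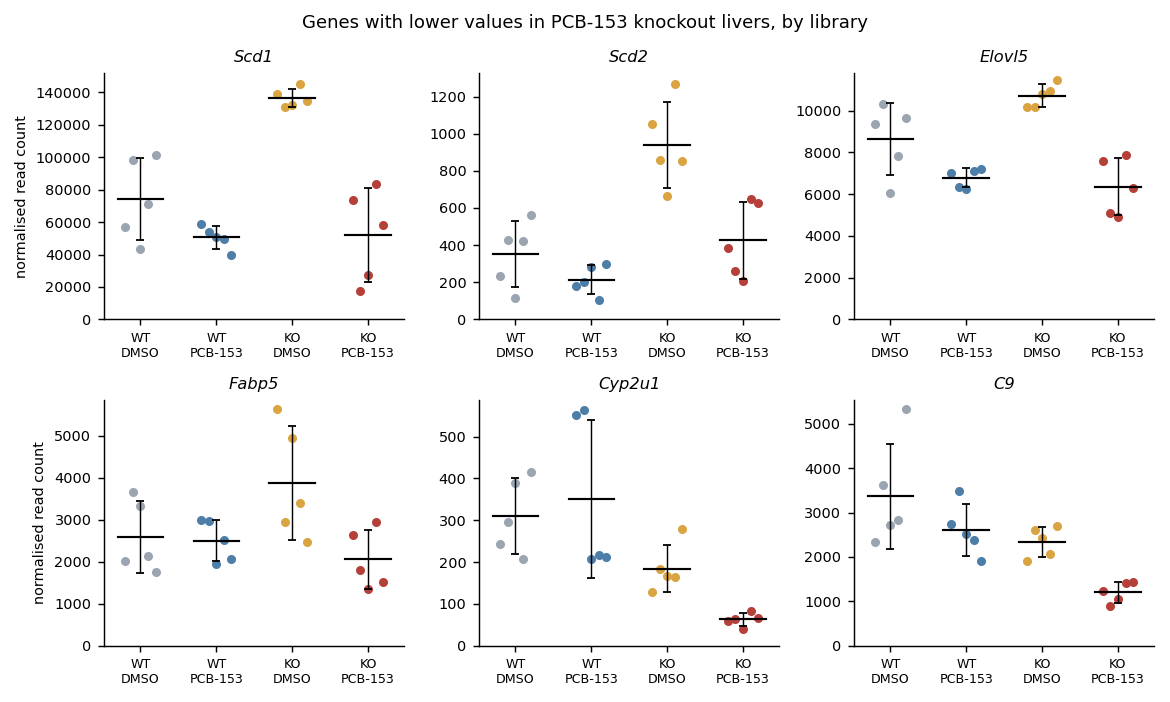
Normalised read count of 6 genes with lower values in exposed knockouts, by library, with mean ± SD bars (WT, wild type; KO, SXR knockout). For Scd1, Scd2, Elovl5, Cyp2u1 and C9 the exposed knockouts all lie below the vehicle knockouts, and for Fabp5 the groups overlap.

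Genes that adult male livers express most had lower means in exposed knockouts. The livers of male mice switch these genes on around puberty under pulsed growth hormone, the major urinary proteins (Mup) among them. The size of the difference rested in large part on vehicle replicates 2 and 5 for Hsd3b5, Slco1a1, Cyp4a12a and most Mup genes. It did so less for Cyp2u1 and Mup20. Hsd3b5, a steroid dehydrogenase of male liver, was at 10.1, 414, 20.8, 8.56 and 607 in vehicle knockouts and at 3.03, 1.82, 11.9, 6.20 and 31.8 in exposed knockouts. Vehicle replicates 2 and 5 were far above the other 8 libraries, which overlapped each other. The log2 fold change was -2.81 ± 0.95 (SE; limma adjusted p = 0.406) with all libraries and -0.71 without these 2. Slco1a1, an organic anion transporter of male liver, was at 301, 3635, 605, 203 and 3076 in vehicle knockouts and at 69.8, 101, 167, 118 and 503 in exposed knockouts, with log2 fold changes of -2.50 and -1.17 in the same order. Cyp4a12a, a fatty acid hydroxylase that makes 20-HETE, went from -2.80 to -1.12 on leaving them out. The authors' deposited table called these 3 genes lower, with log2 fold changes of -4.26, -3.03 and -3.98 and adjusted p-values of 0.00368, 0.00295 and 0.00286.

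All 18 measured Mup genes lie between 60066469 and 62150863 of chromosome 4 (GRCm38). All had lower means in exposed knockouts (50.5% of all genes), with log2 fold changes of -2.46 to -1.73 and a median of -2.20. Their summed normalised counts were 17410, 325700, 49220, 14020 and 321000 in vehicle knockouts and 6779, 5083, 26000, 15590 and 47130 in exposed knockouts. The sums of vehicle replicates 2 and 5 lay inside the vehicle wild-type range of 150100 to 402100, and those of the other 8 knockouts lay below it. All 18 were lower at an unadjusted p under 0.05 with all libraries (5.38% of all genes). Without vehicle replicates 2 and 5, 1 was lower at that p (2.82% of all genes), and the median was -0.59. In wild types 17 of the 18 had a lower mean with PCB-153 (51.3% of all genes), with a median of -0.45. The authors' deposited table called 15 genes with a Mup symbol, Mup-ps pseudogenes included, all lower. Of all its genes with an adjusted p, 0.713% were called lower. The Mup genes share a median of 81.6% of their 50-base words with other transcripts (13.3% to 100%), so their reads cannot be divided among them with certainty and the 18 values are not separate measurements.

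The promoters of 4 Mup genes are shown because they carry the likeness of the genes that differed as a block. The windows run from 250 bases before to 50 after the RefSeq start (GRCm38.p6, minus strand), for Mup11 at chr4:60662346-60662645, Mup7 at chr4:60070426-60070725, Mup18 at chr4:61674045-61674344 and Mup3 at chr4:62087268-62087567. Capitals mark bases that differ from Mup11, or face a gap, within the stretch that aligns with it.
Mup11: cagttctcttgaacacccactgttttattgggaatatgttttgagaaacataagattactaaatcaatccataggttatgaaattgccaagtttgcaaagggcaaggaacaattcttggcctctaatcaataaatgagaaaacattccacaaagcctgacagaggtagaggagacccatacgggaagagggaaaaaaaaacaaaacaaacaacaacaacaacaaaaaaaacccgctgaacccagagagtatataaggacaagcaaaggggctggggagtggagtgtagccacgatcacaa
Mup7: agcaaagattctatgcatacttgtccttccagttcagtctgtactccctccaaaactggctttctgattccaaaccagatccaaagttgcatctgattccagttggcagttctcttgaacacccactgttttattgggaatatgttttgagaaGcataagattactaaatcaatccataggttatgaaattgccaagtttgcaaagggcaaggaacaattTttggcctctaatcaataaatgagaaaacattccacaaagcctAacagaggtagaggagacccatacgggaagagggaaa
Mup18: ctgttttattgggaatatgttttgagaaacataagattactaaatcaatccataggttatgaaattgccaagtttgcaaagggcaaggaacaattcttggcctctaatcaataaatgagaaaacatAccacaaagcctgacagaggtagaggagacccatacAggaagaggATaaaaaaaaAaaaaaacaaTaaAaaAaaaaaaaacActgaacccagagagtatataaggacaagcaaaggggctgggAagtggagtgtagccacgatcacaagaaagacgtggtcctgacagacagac
Mup3: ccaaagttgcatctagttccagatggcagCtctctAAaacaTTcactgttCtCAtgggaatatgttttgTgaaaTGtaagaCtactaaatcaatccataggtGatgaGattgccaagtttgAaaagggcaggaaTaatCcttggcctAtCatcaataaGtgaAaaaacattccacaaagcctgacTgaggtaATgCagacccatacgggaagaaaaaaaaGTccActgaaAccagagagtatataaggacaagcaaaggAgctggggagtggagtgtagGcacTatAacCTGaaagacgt
Within the stretch that aligns with Mup11, 191 of the 194 bases of Mup7 equal it, and 264 of the 274 bases of Mup18. For Mup3, the most different of the 4, it was 232 of 268. Bases of Mup11 that are missing from the other gene are neither marked nor counted, so these counts understate the differences. Mup11 was at 1274, 33628, 4256, 1141 and 31350 in vehicle knockouts and at 504, 265, 2300, 1302 and 3616 in exposed knockouts. Mup3 also had its highest values in vehicle replicates 2 and 5, with 4201, 32809, 8928, 3366 and 40534 against 2237, 1084, 4270, 3205 and 6539. None of the 4 windows held the STAT letters TTCNNNGAA on either strand, which 8.3% of all 32851 promoter windows held.

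Mup20, which encodes the male pheromone darcin and shares 50.5% of its words, did not follow the other members in full. It was at 1638, 1851, 3000, 779 and 5384 in vehicle knockouts and at 457, 346, 848, 683 and 1049 in exposed knockouts, and its log2 fold change of -1.73 ± 0.39 (SE) was -1.32 without vehicle replicates 2 and 5. Cyp2u1, a fatty acid hydroxylase on the list of male-biased genes, was at 128, 183, 167, 165 and 279 in vehicle and 59.7, 64.4, 40.6, 83.3 and 66.7 in exposed knockouts. The groups did not overlap, and the log2 fold change was -1.52 ± 0.29 (SE; limma adjusted p = 0.0959) with all libraries and -1.30 without those 2. Of 31 measured male-biased genes, 30 had a lower mean and 16 were lower at an unadjusted p under 0.05 (5.38% of all genes), with a median of -0.60. Without vehicle replicates 2 and 5 the counts were 25 and 7 (median -0.41), and 2.82% of all genes were lower at that p. In wild types the median was -0.26, with 2 lower and 1 higher at that p (3.11% and 3.58% of all genes).

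**Figure D3:**
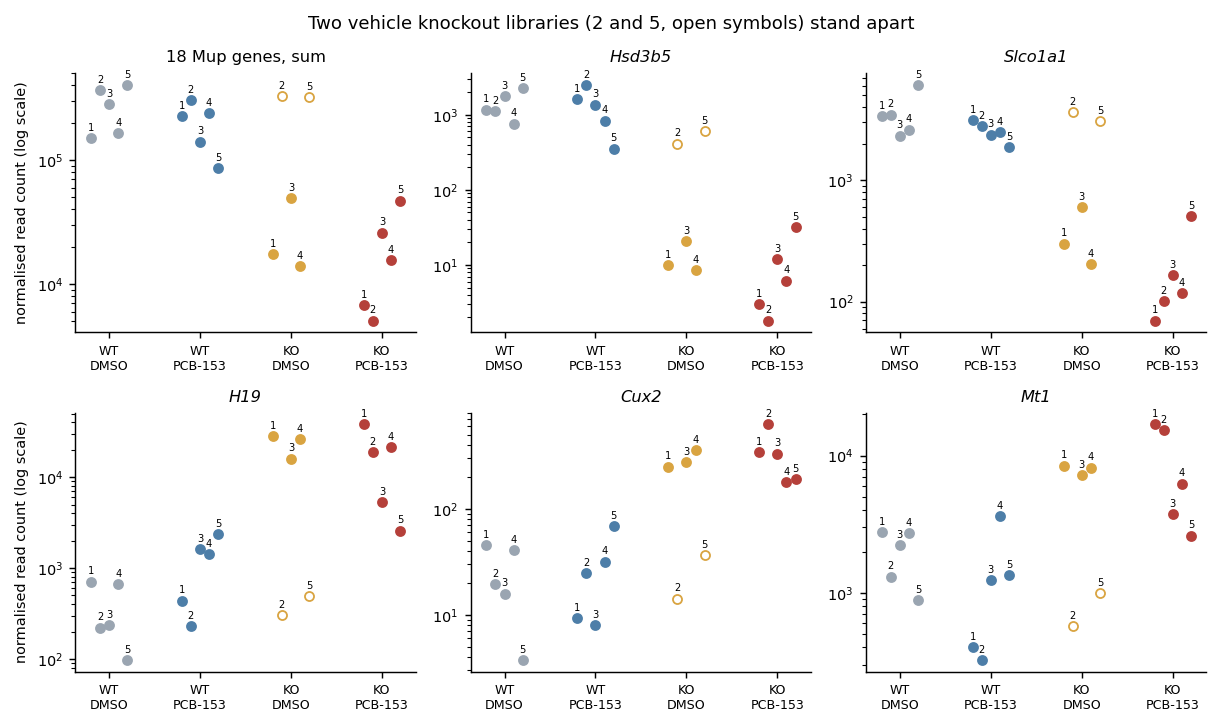
Normalised read count (log scale) of the summed Mup genes and 5 single genes in each liver library, numbered by replicate (WT, wild type; KO, SXR knockout). Open symbols are vehicle knockout replicates 2 and 5, which lie above the other knockouts for the Mup sum, Hsd3b5 and Slco1a1 and below the other vehicle knockouts for H19, Cux2 and Mt1.

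Female-biased genes were mixed. Of 33 measured, 26 had a higher mean, and 3 were higher and 1 lower at an unadjusted p under 0.05, against 4.48% and 5.38% of all genes. These counts were 21, 4 and 2 without vehicle replicates 2 and 5, and the median was 0.14 in place of 0.36. The count of 3 was 5 without vehicle replicate 1 or vehicle replicate 2 and 7 without vehicle replicate 4. Cux2, a transcription factor of female liver named after its values were seen, was at 251, 14.2, 276, 356 and 36.6 in vehicle knockouts and at 343, 629, 333, 180 and 191 in exposed knockouts, so vehicle replicates 2 and 5 were the lowest of the 10 and lay in the wild-type range. A1bg, a plasma glycoprotein of female liver, went the other way, at 317 to 2054 in vehicle and 255 to 590 in exposed knockouts. Its log2 fold change was -1.01 ± 0.48 (SE) in knockouts and 1.26 ± 0.48 in wild types, a difference of -2.27 ± 0.67 with an unadjusted p of 0.0029. Slc22a27, an organic anion transporter, did not overlap at 517 to 684 and 687 to 1136.

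The growth hormone axis had 1 member higher and 2 lower at an unadjusted p under 0.05 out of 19, against 4.48% and 5.38% of all genes. Ghr, the receptor, was at 4604, 6246, 4906, 4686 and 5519 in vehicle and 3517, 3872, 3777, 3921 and 4958 in exposed knockouts. Igf1, the secreted growth factor that the receptor induces, was at 6785, 11106, 9062, 7236 and 8623 against 5656, 5725, 6000, 6439 and 7208. Exposed replicate 5 was the highest of its group for both genes, and it alone reached into the vehicle range. Their log2 fold changes were -0.37 ± 0.12 and -0.45 ± 0.14 (SE; limma adjusted p = 0.396 for both). Igfbp2, a binding protein of IGF, had a log2 fold change of 0.57 ± 0.20 (SE). The 3 genes had -0.25, -0.30 and 0.34 without vehicle replicates 2 and 5, none of them at an unadjusted p under 0.05, and the counts for the list were 0 and 1.

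Of the fetal liver and imprinted growth genes, Gpc3, Peg3 and Spink1 lay higher in each exposed than in each vehicle knockout. Gpc3, a cell-surface glypican of fetal liver (chromosome X, 52272426 to 52613950, GRCm38), was at 76.9, 47.3, 29.5, 51.4 and 29.1 in vehicle knockouts and at 140, 109, 266, 140 and 131 in exposed knockouts. Exposed replicate 3 was the highest. Gpc3 had a log2 fold change in knockouts of 1.74 ± 0.32 (SE; limma adjusted p = 0.0959), which compares with 1.00 ± 0.32 in wild types and was 1.59 without vehicle replicates 2 and 5. Peg3, a paternally expressed zinc finger gene, was at 542, 249, 512, 331 and 290 against 686, 1379, 1014, 644 and 614, and was called higher in the authors' deposited table at an adjusted p of 0.0016. Its log2 fold change was 1.16 ± 0.24 (SE) in knockouts and 0.08 ± 0.24 in wild types, a difference of 1.09 ± 0.34 with an unadjusted p of 0.0046. Spink1, a trypsin inhibitor, did not overlap at 2.82 to 8.24 and 10.2 to 21.2.

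Of 15 measured genes of this list, 11 had a higher mean and 5 were higher at an unadjusted p under 0.05 (49.5% and 4.48% of all genes), with a median of 0.74. Without vehicle replicates 2 and 5, 8 had a higher mean and the median was 0.09. In that setting 3 were higher and 2 lower at that p (2.69% and 2.82% of all genes). H19 shows the dependence most plainly, with exposed knockouts at 38175, 19027, 5292, 21449 and 2576, and a log2 fold change of 1.38 with all libraries and -0.98 without those 2. Igf2, the growth factor gene next to H19, followed the same vehicle libraries at 149, 7.58, 80.7, 88.8 and 9.39, against 74.9, 41.8, 29.7, 27.5 and 17.1 in exposed knockouts. Its log2 fold change was -0.19 with all libraries and -1.57 without those 2, the latter at an unadjusted p under 0.05. Vehicle wild types ran from 3.73 to 14.1 for Igf2, so vehicle knockout replicates 2 and 5 lay inside that range. H19 and Igf2 were named after their values were seen. In wild types H19 had a mean of 387 ± 282 with vehicle and 1218 ± 888 with PCB-153 (SD, n = 5 each). Its log2 fold change there was 1.56, and that of Igf2 was -0.16. Of the 15 genes of the list, 13 had a higher and 2 a lower mean in wild types (48.7% and 51.3% of all genes), with a median of 0.34.

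**Figure D4:**
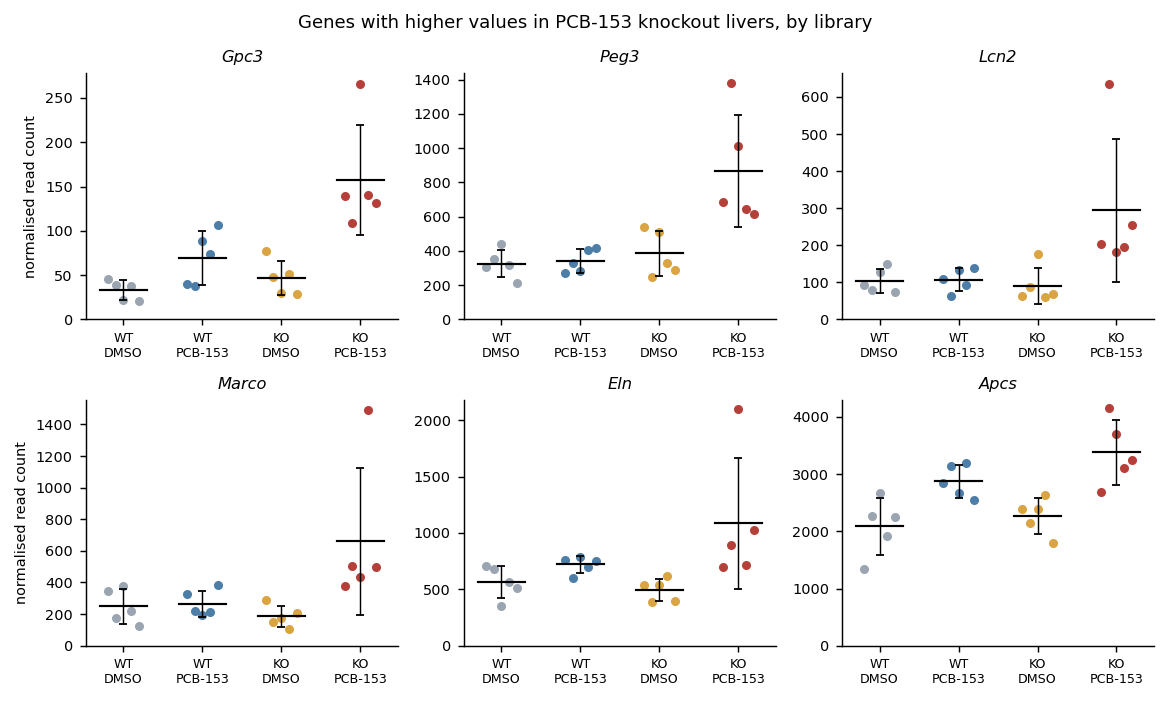
Normalised read count of 6 genes with higher values in exposed knockouts, by library, with mean ± SD bars (WT, wild type; KO, SXR knockout). The exposed knockouts all lie above the vehicle knockouts for each gene; a single library sets much of the mean for Marco (1488), Lcn2 (634) and Eln (2096).

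The metallothioneins, small proteins that bind zinc and other metals, followed the same split of the vehicle libraries. Mt1 was at 8458, 570, 7250, 8173 and 993 in vehicle knockouts and at 16908, 15329, 3767, 6253 and 2610 in exposed knockouts. Mt2 was at 6129, 231, 5179, 4385 and 315 against 11046, 8501, 2054, 4005 and 1660. Vehicle replicates 2 and 5 were the lowest of the 10 for both genes, and the other 8 libraries overlapped. Their log2 fold changes of 1.16 ± 0.76 and 1.39 ± 0.92 (SE) became -0.20 and -0.31 without those 2. Both promoters are shown because the 2 genes, which lie side by side on chromosome 8, had the same order of libraries at the low end. The RefSeq windows (GRCm38.p6, plus strand) are chr8:94172368-94172667 for Mt2 and chr8:94178839-94179138 for Mt1, and capitals mark matches to the metal response element letters TGCACNC or TGCGCNC on either strand.
Mt2: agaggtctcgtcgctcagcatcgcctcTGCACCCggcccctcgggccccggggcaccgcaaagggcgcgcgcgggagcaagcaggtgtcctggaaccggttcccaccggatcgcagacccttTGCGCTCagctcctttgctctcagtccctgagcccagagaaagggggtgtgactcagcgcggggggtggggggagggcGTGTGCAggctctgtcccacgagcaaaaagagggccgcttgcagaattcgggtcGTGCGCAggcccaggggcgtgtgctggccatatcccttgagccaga
Mt1: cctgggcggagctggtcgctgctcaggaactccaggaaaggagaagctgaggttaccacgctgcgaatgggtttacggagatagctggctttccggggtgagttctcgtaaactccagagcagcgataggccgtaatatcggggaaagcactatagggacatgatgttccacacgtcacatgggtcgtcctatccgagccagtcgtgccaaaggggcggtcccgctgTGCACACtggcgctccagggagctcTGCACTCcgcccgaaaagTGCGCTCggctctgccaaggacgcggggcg
Mt2 held 4 such matches and Mt1 held 3, while 25.7% of all 32851 promoter windows held at least 1. The match is a description of the letters, and binding of the metal-responsive factor was not measured.

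Acute phase and innate immune genes were partly higher in exposed knockouts. Lcn2, a siderophore-binding protein, was at 62.3, 88.1, 175, 61.0 and 68.5 in vehicle and 204, 634, 181, 196 and 253 in exposed knockouts without overlap. The log2 fold change was 1.62 ± 0.33 (SE; limma adjusted p = 0.0959) in knockouts and 0.03 ± 0.33 in wild types, a difference of 1.59 ± 0.46 with an unadjusted p of 0.0025. Apcs, the serum amyloid P component, was at 2388, 2147, 2386, 2637 and 1795 against 2690, 4164, 3702, 3112 and 3256, and in wild types its log2 fold change of 0.49 ± 0.15 was close to the 0.57 ± 0.15 of knockouts (SE), with a difference of 0.08 ± 0.22. Orm2, an acute phase glycoprotein, overlapped at 201 to 814 and 742 to 1025. Of 32 measured acute phase genes, 6 were higher and 2 lower at an unadjusted p under 0.05 (4.48% and 5.38% of all genes), with a median of 0.12. The same counts held without vehicle replicates 2 and 5, where the shares over all genes were 2.69% and 2.82%.

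Marco, a scavenger receptor of macrophages, was at 289, 152, 175, 105 and 205 in vehicle knockouts and at 380, 506, 435, 1488 and 495 in exposed knockouts. The groups did not overlap, exposed replicate 4 was far above the rest, and the authors' deposited table called the gene higher at an adjusted p of 0.0024. Its log2 fold change was 1.70 ± 0.35 (SE; limma adjusted p = 0.0959), and 1.36 at the least on leaving out any 1 knockout library. Of 21 measured Kupffer cell and macrophage markers, 18 had a higher mean and 3 were higher at an unadjusted p under 0.05 (49.5% and 4.48% of all genes), with a median of 0.25. The counts were 19 and 10 without vehicle replicates 2 and 5 (median 0.48), where 2.69% of all genes were higher at that p. Without vehicle replicate 4 they were 12 and 2, with 1 lower at that p (median 0.0136), and without exposed replicate 4 they were 17 and 2 (median 0.121). The count of 3 was 6 without vehicle replicate 5 or without exposed replicate 3. Their summed counts were 5286 to 10850 in vehicle and 7380 to 14270 in exposed knockouts. In wild types 16 of the 21 markers had a higher and 5 a lower mean (48.7% and 51.3% of all genes), with a median of 0.14. C1qb, a complement subunit made by macrophages, overlapped at 277 to 550 and 435 to 782. In bulk liver RNA, more cells of a type and more RNA per cell cannot be told apart.

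All 9 measured monocyte and dendritic cell markers had higher means (49.5% of all genes), 4 of them at an unadjusted p under 0.05 (4.48% of all genes), namely the class II antigen presentation genes Cd74, H2-Aa, H2-Ab1 and H2-Eb1. This count of 4 was 2 without vehicle replicates 2 and 5, and 0 without vehicle replicate 1, vehicle replicate 4, exposed replicate 2 or exposed replicate 5. In wild types all 9 also had higher means with PCB-153 (48.7% of all genes), and 0 were higher at that p (3.58%). The median was 0.19 there and 0.61 in knockouts. Cd74 was at 449, 530, 557, 309 and 601 in vehicle knockouts and at 792, 1058, 383, 820 and 919 in exposed knockouts, where exposed replicate 3 lay below 4 vehicle libraries. Only 4 of 17 neutrophil markers passed the minimum mean of 10. S100a9, a calcium-binding protein of neutrophils, did not overlap at 5.35 to 10.3 and 11.9 to 22.3, and the summed level of those 4 genes was 120 to 187 and 149 to 518. B cell markers summed to 96.3 to 251 and 88.6 to 226. The part of blood cell content in the values of Marco, Lcn2 and S100a9 was not tested.

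Interferon response genes had 0 members higher and 7 lower at an unadjusted p under 0.05 out of 38, against 5.38% of all genes. Rsad2, an antiviral enzyme, was at 209, 410, 175, 238 and 391 in vehicle and 205, 75.3, 84.3, 156 and 142 in exposed knockouts. Vehicle replicates 2 and 5 were again the highest, and the log2 fold change of -1.11 ± 0.33 (SE) was -0.73 without them. The median of the list was -0.09 with all libraries and 0.20 without these 2, where 2 members were lower at that p (2.82% of all genes). The count of 7 was 4 without exposed replicate 2 or without exposed replicate 3.

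Several genes outside these lists did not overlap between the groups. C9, the last component of the complement attack complex, was at 1917, 2619, 2418, 2059 and 2688 in vehicle and 1237, 894, 1044, 1410 and 1443 in exposed knockouts. Its log2 fold change was -0.97 ± 0.19 (SE; limma adjusted p = 0.0959). Mug2, a plasma protease inhibitor of the alpha-macroglobulin family, was at 13612, 14306, 13234, 11809 and 14652 against 7212, 7154, 5701, 9738 and 9880. Its difference from wild type was -0.74 ± 0.23 (SE) with an unadjusted p of 0.0041, and it shares 50.5% of its words with other transcripts. C9 and Mug2 were called lower in the authors' deposited table, as was Srd5a1, a steroid 5-alpha reductase at 326 to 628 and 162 to 312. Without vehicle replicates 2 and 5 the log2 fold changes were -0.84 for C9 and -0.73 for Mug2, against -0.97 and -0.80 with all libraries.

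Itga6, an integrin subunit, was at 89.7, 95.6, 74.6, 93.1 and 89.2 in vehicle and 38.4, 43.6, 38.7, 57.6 and 61.0 in exposed knockouts. The 10 wild-type livers lay between 29.7 and 63.7, so the exposed knockouts were inside their range and the vehicle knockouts above it. The log2 fold change was -0.89 ± 0.20 (SE) in knockouts and 0.10 ± 0.20 in wild types, and the unadjusted p of the difference was 0.0017. Cadps2, a factor of vesicle release, was at 78.1 to 96.7 against 37.2 to 55.3. Other genes with lower values and no overlap were Gabbr2, a GABA receptor subunit at 152 to 246 and 60.8 to 148, and Hnmt, which inactivates histamine, at 206 to 285 and 94.4 to 177. Among those with higher values were Eln, the elastin gene, at 387 to 617 against 695 to 2096, and Tmem98, Slc13a3 and Pcp4l1, with log2 fold changes of 0.80, 0.78 and 1.12. Ang, a ribonuclease whose groups did overlap, was called higher in the authors' deposited table. It shares exons with Rnase4, so its reads are uncertain.

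Most nuclear-encoded genes of the ribosome and the respiratory chain had slightly higher means in exposed knockouts, and the mitochondrially encoded genes had lower means. Of 82 cytosolic ribosomal protein genes, 79 had a higher mean and 16 were higher at an unadjusted p under 0.05 in knockouts (49.5% and 4.48% of all genes), with a median of 0.20 in knockouts and also 0.20 in wild types. Rpl4 was at 7415, 6124, 6963, 6877 and 6037 in vehicle and 7515, 8509, 7792, 7581 and 7709 in exposed knockouts. Without vehicle replicates 2 and 5, 60 of the 82 had a higher mean, 0 reached that p (2.69% of all genes) and the median was 0.07. The count of 16 was 3 without exposed replicate 2 and 4 without vehicle replicate 2 or vehicle replicate 5. It was 24 without vehicle replicate 1, 32 without vehicle replicate 3 and 34 without exposed replicate 5. Over all 16155 genes, the count higher at that p was 423, 451, 540, 787, 810 and 1027 in the same order. The respiratory chain list of 79 nuclear genes held 71 with a higher mean and 4 at that p, close to the share over all genes (median 0.14, against 0.21 in wild types), and without vehicle replicates 2 and 5 these counts were 63 and 1. All 13 mitochondrially encoded protein genes had lower means (50.5% of all genes), with a median of -0.23 in both genotypes. Of these, 2 were lower at that p with all libraries (5.38% of all genes) and 2 without vehicle replicates 2 and 5 (2.82%). The values of mt-Atp8 were 49214 to 77535 in vehicle and 30387 to 45410 in exposed knockouts. In tertiles of exon length, the shortest genes had a median log2 fold change of 0.06 and the longest had -0.06 in knockouts, against 0.07 and -0.07 in wild types, and the part of transcript length in the ribosomal protein values was not tested.

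**Figure D5:**
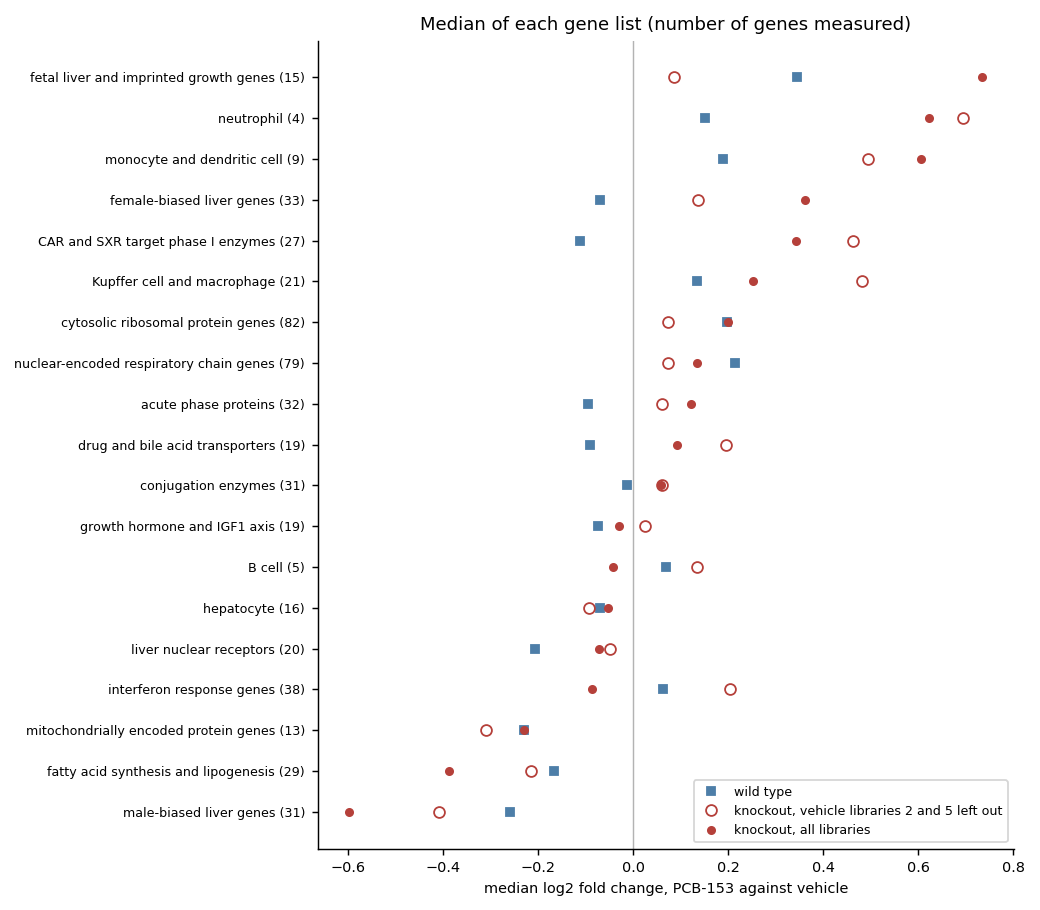
Median log2 fold change (PCB-153 against vehicle) of each gene list, in knockouts with all libraries (filled circles), in knockouts without vehicle replicates 2 and 5 (open circles) and in wild types (squares), with the number of genes measured in brackets. The list of CAR and SXR targets is at 0.34 and 0.46 in knockouts and at -0.11 in wild types. The fetal liver list is at 0.74 in knockouts with all libraries, at 0.09 without these 2 and at 0.34 in wild types.

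Of the 61 genes called in the authors' deposited table, 56 had the same direction in the wild types, as did 68.1% of all genes tested. The 61 include 15 genes with a Mup symbol, whose reads cannot be divided with certainty, so the 61 are not all separate measurements. In wild types 6 of the 61 had an unadjusted p under 0.05 against 6.69% of all genes. The difference between genotypes had an unadjusted p under 0.05 for 25 of the 61, against 2.69% of all genes; since the 61 were chosen for a difference in knockouts, this share is given as a description. Among genes named by the rule, the smallest unadjusted p of the difference was that of Cyp2u1, 0.00098, with -1.52 in knockouts and 0.06 in wild types. Cyp2c37 came next among the enzymes, with a difference of 1.17 ± 0.33 (SE) and an unadjusted p of 0.0019, and Cyp2b10 had 0.88 ± 0.36 and 0.022. For Gpc3, Apcs and Scd2 the differences of 0.74 ± 0.46, 0.08 ± 0.22 and -0.63 ± 0.54 (SE) did not reach an unadjusted p of 0.05, and their directions were the same in both genotypes.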

How the data were processed

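Liver RNA of 20 mice in 4 groups of 5 was used, and the 10 SXR knockout livers make up the comparison. The design text names a stranded TruSeq mRNA kit and the sample labels a TruSeq RNA kit, and liver and spleen were sequenced as separate pools. STAR 2.6.0, featureCounts and DESeq2 3.8 are listed, with FastQC and build mm10, in the submitters' processing notes, and the counting strand was not found in the sources used here. The deposited liver values are gene counts that the authors divided by size factors, a normalised signal and not raw counts. Whole reads were recovered from the steps of these values with a tolerance of 0.05 reads. The authors' deposited table of exposed against vehicle knockouts gives a log2 fold change and a p-value per gene, and its adjusted p is missing for 10401 of the genes tested here.

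The main test was limma 3.58.1 (R 4.3.3, eBayes with trend) on log2(normalised value + 1), so that fold changes of low genes are understated. The 4 liver groups entered 1 fit, and Benjamini-Hochberg adjustment ran over all 16155 genes with a mean of 10 or more. The difference between genotypes was the interaction contrast of that fit. edgeR 4.0.16 (quasi-likelihood, TMM) and DESeq2 1.42.0 were run on the recovered reads, and the scripts were tested on simulated data. Other pseudocounts, filters, scalings, array weights, a replicate block and each library left out were tried as alternatives.

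Named genes are Nr1i2, Cyp2b10, Cyp3a11, Cyp2c55, Cyp1a1, Cyp1a2, Alas1, Mt1 and Mt2, and genes taken by 3 rules. These are the 12 genes with the largest differences in each direction among those with a mean of 50 or more, an unadjusted p under 0.01 and groups apart; the 8 largest called in each direction in the authors' deposited table; and up to 4 members of each list with the smallest unadjusted p under 0.05. Akr1b7, Cux2, Fasn, H19, Igf2, Mup3, Rnase4, Xist and Eif2s3y were named after their values were seen. The members and the gene lists were chosen with earlier results of these data known. Gene positions and shared 50-base words came from the GRCm38 annotation, and promoter windows from RefSeq GRCm38.p6.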

Additional observations from a re-analysis of the deposited data

Results flagged for a closer look

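Among the genes named, 158 groups of 5 knockout libraries were searched for a library far from the other 4, and 10 were found (6.3%). The limit used gives about 5% by chance for normally distributed values. The search ran on normalised counts without logarithms, for which the share by chance was not tested. In exposed knockouts the library far from the rest was replicate 2 for Cyp2j9 (419), Lcn2 (634) and Rpl4 (8509), replicate 3 for Eln (2096) and Gpc3 (266), replicate 4 for Marco (1488), and replicate 5 for Ghr (4958) and Slco1a1 (503). In vehicle knockouts it was replicate 3 for Lcn2 (175) and replicate 1 for Spink1 (8.24). In each case the library was the highest of its group, and the gap to the next was over 0.71 of the group's range. The causes were not tested.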

How the results depend on the processing

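Beside 0 genes in the main limma fit, DESeq2 on the recovered reads called 63 with or without the minimum mean of 10. The own filter of DESeq2 on low means stayed on in both runs. With limma, 7 were called with array weights (Lrp11, Marco, Gpc3, Cadps2, Smarca5, Akr1c18 and Elovl5), 1 without a filter on low values, and 0 to 3 on leaving out 1 library. Scd1, Elovl5 and Slc10a2 were called without exposed replicate 4, and Lrp11 without vehicle replicate 2. The count at an unadjusted p under 0.05 was 2445 without the filter, 889 without vehicle replicates 2 and 5, and 946 to 2404 on leaving out 1 library. In wild types DESeq2 called 1 gene. Without vehicle replicates 2 and 5 the median of the fetal list was 0.0856 and that of the interferon list 0.20. On leaving out 1 library the median was -0.0674 to 0.184 for the growth hormone axis and -0.143 to -0.0420 for nuclear receptors. Direction changed for H19 (-0.98), Mt1 (-0.20), Mt2 (-0.31) and Cyp1a1 (0.37) without vehicle replicates 2 and 5. It also changed for Cyp3a11 with edgeR (-0.0063) and with DESeq2 without the minimum mean of 10 (-0.00022). On leaving out 1 library the log2 fold change was -0.12 to 0.15 for Cyp3a11, -0.29 to 0.15 for Cyp1a1, -0.0605 to 0.279 for Cyp1a2 and -0.74 to 0.29 for Igf2. The causes were not tested. Replicate numbers do not pair the samples (correlations of same-numbered deviations 0.15, -0.38, -0.03, 0.03 and 0.40, with only replicate 5 closest to its own number). With the replicate block 0 genes were called and 1717 had an unadjusted p under 0.05. Genes with a mean near 10 rest on few reads and cannot show small differences.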
